A study of Mus musculus with 4 samples.

Results

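The ceramide and lipoxygenase genes of the epidermal barrier were compared between cultured keratinocytes (KCs) labelled wild type (WT) and Nfat5-/-. The 34 genes were taken by symbol from a list of enzymes and carriers of ceramide synthesis, of acylceramide formation and of lamellar-body lipids, out of 25814 genes in the tables. KCs are the main cell type of the epidermis. They were prepared from the tails of adult 129/sv mice, either Nfat5-/- animals or their WT siblings, and grown in serum-free medium with 0.06 mM calcium without any treatment. Polyadenylated RNA from 2 libraries per genotype was sequenced, and the series describes these as separate experiments. Nfat5 encodes a transcription factor of the NFAT family that responds to osmotic stress. Tails of both genotypes travelled on ice overnight before the cells were isolated. The methods attribute excess sodium in the blood, kidney damage and reduced body size to the 129sv animals, and do not say there which genotype is meant. Neither the animal behind each library nor the time in culture is given in the labels, so p-values measure the spread between these libraries only.

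Ceramides are the main lipids between the dead cells of the outermost epidermis and hold water in the body. They are built from a long-chain base and a fatty acid. In the epidermis some receive an ultra-long fatty acid that is hydroxylated at its end and then joined to linoleic acid, which gives acylceramide, a lipid typical of this tissue. Acylceramide is carried as its glucosyl form in lamellar bodies, is secreted, and is oxidised by lipoxygenases before it is bound to the protein envelope of the cell. Loss of single genes of this route causes ichthyosis or a barrier defect in people or mice. KCs kept in low calcium stay mostly in the basal state, whereas the late steps belong to suprabasal cells.

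The RNA of Nfat5, the targeted gene, was measured first. Its level was 1.67 and 3 RPKM (exon reads divided by exon length and library size) in the WT libraries, against 2.02 and 2.78 RPKM under the label Nfat5-/-. The groups overlapped (log2 fold change 0.09, SE 0.26, edgeR adjusted p = 0.913), so RNA of the whole Nfat5 gene did not tell the labelled genotypes apart. Reads summed over the whole gene cannot show whether protein was lost, so they do not test the labels. The study reports a western blot in which KCs from Nfat5-/- mice lacked NFAT5 protein. Depth was 16219445 to 23494436 gene reads per library, which puts 3 reads at 0.128 to 0.185 CPM (reads scaled to library size), counting error only. The basal KC markers Krt5 and Krt14 stood at 4990 to 5775 RPKM and 5148 to 6985 RPKM, and of 6 basal markers edgeR and DESeq2 called 0, with 1 lower at an unadjusted p under 0.05. The summed level of 7 suprabasal markers was 62.2 and 29.5 RPKM in WT KCs against 51.1 and 81.4 RPKM in KCs labelled Nfat5-/-, with 1 of 7 called higher (Dsg1a) and 3 higher at an unadjusted p under 0.05 (Krt1, Lor and Dsg1a). Sbsn made up most of that sum, at 56.5 and 24.5 RPKM against 43.3 and 70.1 RPKM. Krt1 was at 0.172 and 0.147 RPKM against 0.271 and 0.811 RPKM, Lor at 2.54 and 2.59 RPKM against 3.94 and 6.07 RPKM, and Dsg1a at 0.148 and 0.103 RPKM against 0.489 and 0.755 RPKM, each higher in both libraries labelled Nfat5-/-. Krt1 had 7 and 8 reads in WT KCs and entered the test only through the libraries labelled Nfat5-/-. Flg, at 0.201 and 0.277 RPKM against 0.446 and 1.16 RPKM, and Ivl, at 1.75 and 1.27 RPKM against 2.1 and 1.99 RPKM, were also higher in both. Neither passed (edgeR adjusted p = 0.858 and 0.461), and 90.7% of the Flg reads tested lay in introns, which RPKM leaves out. Krt10 was lower in both libraries labelled Nfat5-/-, at 0.854 and 0.684 RPKM against 0.55 and 0.52 RPKM, and did not pass the test (edgeR adjusted p = 0.547). All 5 smooth muscle markers were called higher, with sums of 152 to 186 RPKM in WT KCs against 524 to 832 RPKM in KCs labelled Nfat5-/-. Acta2 made up most of these sums, at 164 and 134 RPKM against 450 and 723 RPKM. Myh11 had 1 and 1 reads in WT KCs against 22 and 40, and entered the test only through the libraries labelled Nfat5-/-. Of 7 melanocyte markers 5 were tested and 1 was called lower (Tyrp1), while 3 were lower at an unadjusted p under 0.05 and 2 were called by DESeq2, with sums of 7.34 to 7.76 RPKM against 2.31 to 3.26 RPKM. Of 8 sebocyte markers 4 were tested and edgeR called 0, while Mgst1 and Fabp5 were higher at an unadjusted p under 0.05. DESeq2 called the same 2. The sums were 97.4 to 113 RPKM against 142 to 150 RPKM. Fabp5 made up most of them, at 108 and 92.6 RPKM against 142 and 135 RPKM. Scd3 was lower, at 0.364 and 0.286 RPKM against 0.215 and 0.242 RPKM. The defining markers Pparg, Mc5r and Awat1 had 0 reads in every library. Fibroblast, immune and endothelial markers summed to 0.409 to 4.73 RPKM, with 0 of the 8 tested called by edgeR or DESeq2 or past an unadjusted p of 0.05. The part of these shifts in the results below was not tested. In bulk RNA, a change in the number of cells of a type and a change in RNA per cell cannot be told apart.

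Of the 34 genes, 29 had enough reads to be tested, and 3 of them (10.3%) were called at an edgeR adjusted p under 0.05, all higher in the libraries labelled Nfat5-/-: Elovl4, Cyp4f39 and Pnpla1. Cyp4f39 entered the test only through the libraries in which it was high, so the share of members called carries no weight as support. With at least 10 reads required in every library Cyp4f39 was not tested, and the 3 members called were Elovl4, Pnpla1 and Ugcg (edgeR adjusted p = 0.0485). Over all 12614 genes tested the same rule called 1.27%, with 0.943% higher and 0.325% lower. Cyp4f39 and Pnpla1 stand in the acylceramide step, whose remaining gene Abhd5 had a log2 fold change of -0.04, and Elovl4 in the step of very long chains and activation, whose median was 0.07. No member was called lower, by edgeR or by DESeq2. At an unadjusted edgeR p under 0.05 there were 8 higher members against a background of 8.17%, and 1 lower member (Abca12) against 6.47%. By DESeq2, 4 members were higher, the same 3 and Ugcg, where 2.31% of genes were higher and 0.914% lower. Each of the 3 edgeR calls was lost when either library labelled Nfat5-/- was left out. Without replicate 1 the adjusted p was 0.113 for Elovl4, 0.0958 for Cyp4f39 and 0.0939 for Pnpla1. Without replicate 2 the corresponding values were 0.116, 0.309 and 0.239. The log2 fold changes without replicate 1 and without replicate 2 were 1.04 and 1.19 for Elovl4, 3.54 and 2.61 for Cyp4f39, and 2.78 and 2.19 for Pnpla1.

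The median log2 fold change of the 29 tested members was 0.24, against -0.01 over all genes tested, with 23 members above 0 and 6 below. In 15 members both libraries labelled Nfat5-/- exceeded both WT libraries in CPM (background 23.3%), and in 2 members, Elovl7 and Abca12, both were lower (background 24.5%). In mean RPKM, 6 tested members were at least 2-fold higher (background 3.98%) and none at least 2-fold lower (background 1.89%). Those 6 were Elovl4, Cyp4f39, Pnpla1, Degs2, Acer1 and Alox12b, and 5 of them had a WT mean under 1 RPKM. Cyp4f39, Acer1 and Alox12b, with 5 to 9 reads in each WT library, entered the test only through the libraries labelled Nfat5-/- and were not tested with at least 10 reads in every library, so neither this count nor the median stands as support. The median fold change by step was 2.51 for acylceramide formation (3 genes), 1.36 for the lipoxygenases (2 tested), 0.75 for desaturation and hydroxylation (2 tested), 0.32 for the ceramidases, 0.28 for glucosylceramide and lamellar bodies, 0.24 for long-chain base synthesis, 0.13 for sphingomyelin genes, 0.10 for the ceramide synthases and 0.07 for the elongases and acyl activation, on the log2 scale.

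**Figure D1:**
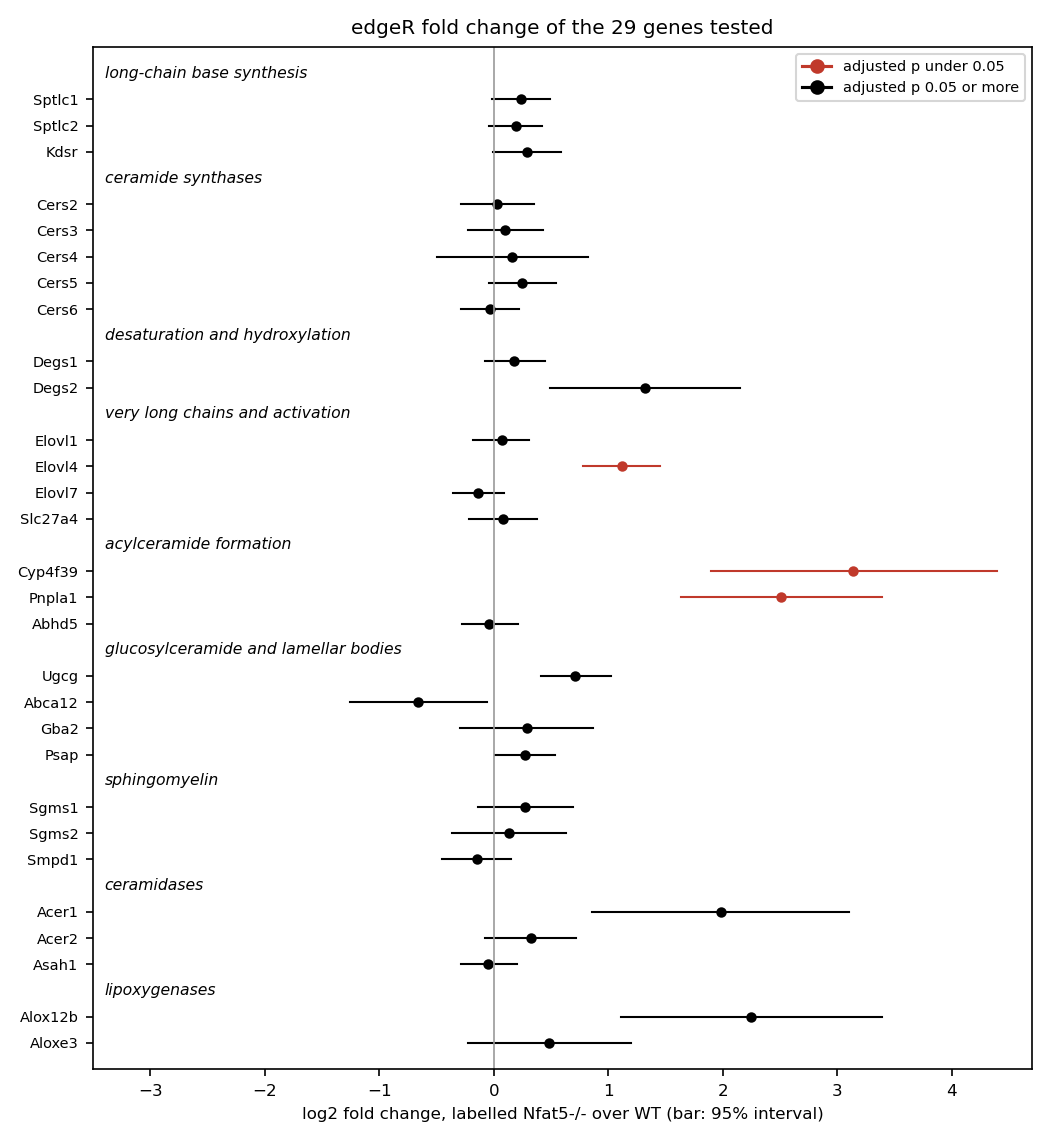
The log2 fold change of the labelled Nfat5-/- over the WT libraries (x axis) is plotted for the 29 tested genes by step of the pathway, as the edgeR estimate with its 95% interval. Elovl4, Cyp4f39 and Pnpla1, in red, passed the threshold, and most core ceramide genes lie within 0.3 of 0.

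The 250 bases before the RefSeq start of each of the 3 called genes are shown, since these carry the calls (GRCm38.p6, gene strand, 5′ to 3′), with matches to TGGAAA, the core of NFAT-type sites, in capitals. Elovl4 lies at chr9:83806306-83806555 on the minus strand, Cyp4f39 at chr17:32452473-32452722 on the plus strand and Pnpla1 at chr17:28858161-28858410 on the plus strand.
Elovl4: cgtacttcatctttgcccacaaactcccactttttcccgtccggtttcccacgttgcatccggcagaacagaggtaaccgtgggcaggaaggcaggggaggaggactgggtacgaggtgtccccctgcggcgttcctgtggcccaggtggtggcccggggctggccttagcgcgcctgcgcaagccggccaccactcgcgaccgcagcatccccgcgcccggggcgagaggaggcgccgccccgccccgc
Cyp4f39: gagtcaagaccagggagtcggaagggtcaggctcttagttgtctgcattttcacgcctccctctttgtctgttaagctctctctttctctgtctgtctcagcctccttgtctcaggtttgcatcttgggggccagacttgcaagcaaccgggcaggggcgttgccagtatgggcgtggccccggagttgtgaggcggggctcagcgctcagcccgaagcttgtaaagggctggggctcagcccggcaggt
Pnpla1: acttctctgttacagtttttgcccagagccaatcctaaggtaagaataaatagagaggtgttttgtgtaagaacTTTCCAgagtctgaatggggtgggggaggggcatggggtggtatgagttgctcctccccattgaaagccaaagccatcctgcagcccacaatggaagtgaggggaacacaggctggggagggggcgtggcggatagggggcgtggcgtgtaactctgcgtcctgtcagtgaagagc
The Pnpla1 window held 1 match, as the reverse complement TTTCCA, starting 176 bases before the start. The other two windows held none. Over all RefSeq promoters of this kind (250 bases before to 50 after the start, both strands) 21.4% held TGGAAA, and 5 of 38 windows of 27 tested members did (13.2%), those of Cers5, Pnpla1, Sgms1 and Sgms2. An AP-1 motif, TGANTCA, was in 4 of the 38 windows (10.5%, against 7.81%), the Grainyhead-like motif AACCGGTT in 1 (Sgms1, 2.63%, against 0.146%), and the PPAR/RXR direct repeat (AGGTCA repeated after 1 free base) in 0 (against 0.0396%). The shorter GGAAA, which lies inside TGGAAA, was in 18 windows (47.4%, against 61.3%). The RefSeq start of Cyp4f39 lies 15739 bases from the start listed in the tables, that of Elovl4 28 bases, and that of Pnpla1 is the same. A letter match is not evidence of binding, and binding was not measured.

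Acylceramide formation needs an enzyme that hydroxylates the end of the ultra-long fatty acid, which in mice is encoded by Cyp4f39, a cytochrome P450. This gene (ENSMUSG00000061126) lies on chromosome 17 of GRCm38 (32468462 to 32492479, plus strand, 12 exons). Its level was 0.339 and 0.141 RPKM in WT KCs against 1.43 and 2.65 RPKM in KCs labelled Nfat5-/-. Both libraries labelled Nfat5-/- were far above both WT libraries, and the pair also differed between themselves. The reads behind these values were 9 and 5 in WT, near the floor, and 55 and 81, with none in introns, so the gene passed the filter on low counts only through the libraries where it was high. The log2 fold change was 3.14 (SE 0.53, 95% interval 1.90 to 4.39, edgeR adjusted p = 0.044), the largest among the 29 tested members. It was 3.84 without WT replicate 1 and 2.58 without WT replicate 2. Limma on log2(RPKM + 1), which damps low genes, gave 1.27 (adjusted p = 0.051), and on log2(RPKM + 0.1) it gave 2.66 (adjusted p = 0.0454). The replicate block in edgeR gave 3.11 and no call (adjusted p = 0.0759).

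Pnpla1 encodes the transacylase that moves linoleic acid onto the hydroxylated ceramide and so completes acylceramide. The gene (ENSMUSG00000043286) lies on the same chromosome (28858411 to 28890308, plus strand). The level was 0.134 and 0.111 RPKM in WT KCs against 0.602 and 0.876 RPKM in KCs labelled Nfat5-/-, from 11, 12, 66 and 77 reads. The groups were well apart, at 0.122 ± 0.0165 RPKM against 0.739 ± 0.194 RPKM (SD, n = 2 each). Its log2 fold change was 2.51 (SE 0.37, 95% interval 1.63 to 3.39, edgeR adjusted p = 0.0318), and 96.9% of its exon reads were placed at a single site. Limma gave 0.63 on log2(RPKM + 1) (adjusted p = 0.0636) and 1.90 on log2(RPKM + 0.1) (adjusted p = 0.0522). With the replicate block edgeR gave 2.50 and no call (adjusted p = 0.0504). Abhd5, whose product presents linoleate from triglyceride to PNPLA1, was abundant in every library at 13.3 and 13.9 RPKM in WT KCs against 13 and 13.3 RPKM in KCs labelled Nfat5-/-. Its groups overlapped (log2 fold change -0.04, 95% interval -0.28 to 0.21, adjusted p = 0.913 by edgeR). Within the summed RPKM of these 3 genes, Cyp4f39 went from 2.47% and 0.998% in WT KCs to 9.51% and 15.8% in KCs labelled Nfat5-/-, and Abhd5 from 96.6% and 98.2% to 86.5% and 79%.

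**Figure D2:**
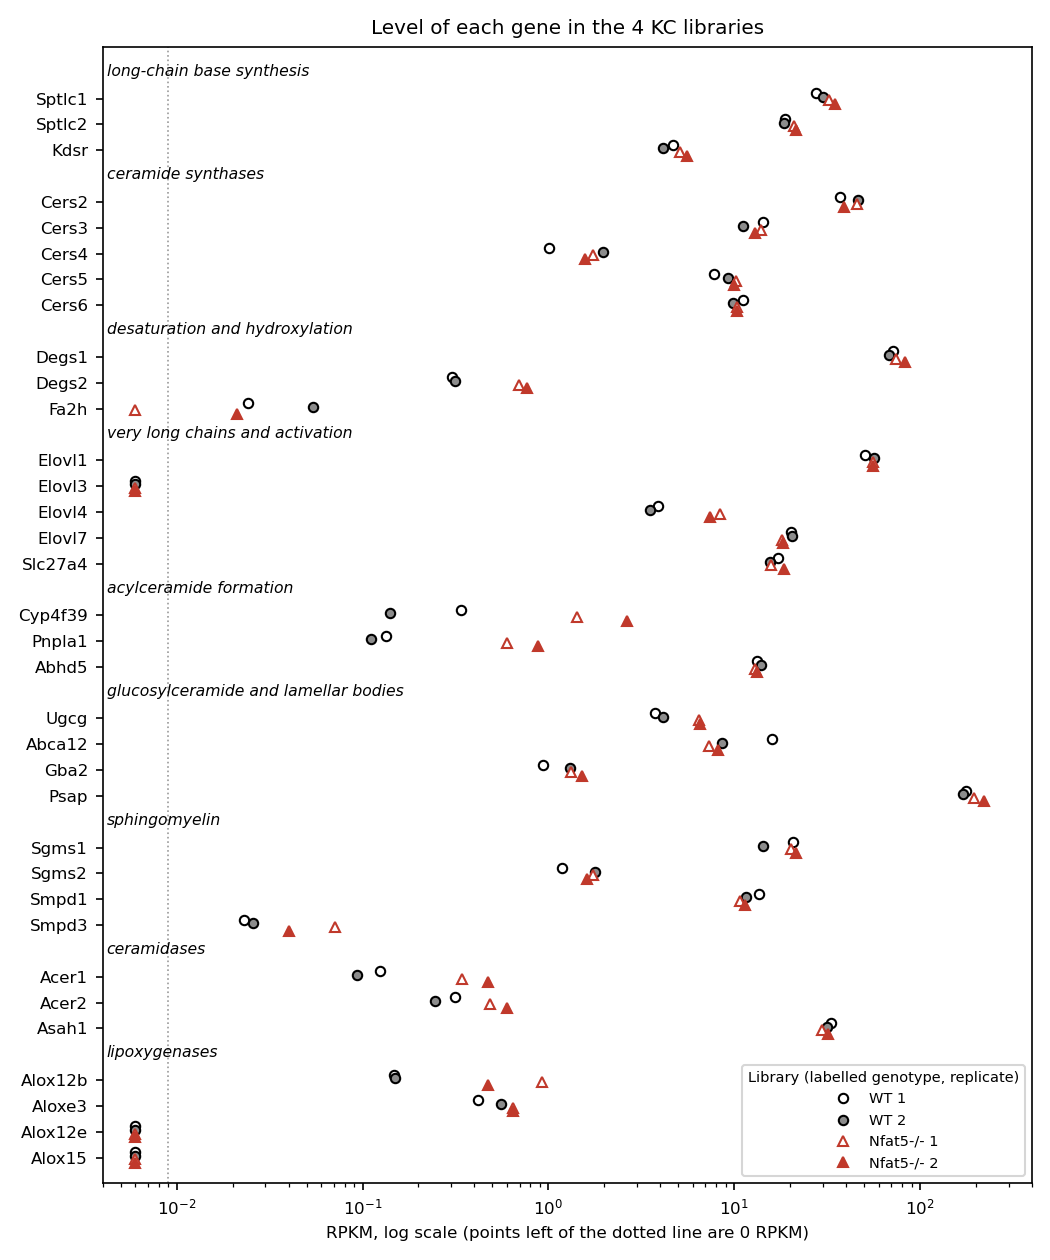
The level of each of the 34 genes in RPKM (x axis, log scale) is plotted for the 4 libraries, grouped by step of the pathway, with circles for WT and triangles for the libraries labelled Nfat5-/-. Elovl4, Cyp4f39, Pnpla1, Degs2, Acer1 and Alox12b show triangles well to the right of the circles, while Psap and Degs1 are high and Elovl3, Alox12e and Alox15 are at 0 in all 4 libraries.

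Elovl4 encodes the elongase that extends fatty acids to the ultra-long range used in acylceramide. The gene (ENSMUSG00000032262) lies on chromosome 9 (83778692 to 83806277, minus strand). Its level was 3.88 and 3.51 RPKM in WT KCs against 8.38 and 7.44 RPKM in KCs labelled Nfat5-/-, from 197, 235, 613 and 430 reads. The replicates of each group were close and the groups clearly separate, at 3.69 ± 0.261 RPKM against 7.91 ± 0.665 RPKM (SD, n = 2 each). This is a log2 fold change of 1.12 (SE 0.14, 95% interval 0.78 to 1.45, edgeR adjusted p = 0.0239). Of the 3 called genes it had the most reads. It passed the test in every alternative that kept all 4 libraries.

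None of the other elongases passed the test. Elovl1, which makes saturated very long chains, was the most abundant at 50.7 and 56.8 RPKM in WT KCs against 55.5 and 56 RPKM in KCs labelled Nfat5-/- (log2 fold change 0.07, 95% interval -0.18 to 0.31, edgeR adjusted p = 0.818). It overlaps Cdc20 in position, so some reads may be shared. Elovl7 stood at 20.1 and 20.4 RPKM in WT KCs against 18.1 and 18.4 RPKM in KCs labelled Nfat5-/-. The groups did not overlap, yet the difference was small (log2 fold change -0.14, 95% interval -0.36 to 0.09, edgeR adjusted p = 0.579). Elovl3, an elongase of sebaceous glands and hair follicles, had no read in any library, which allows up to 0.128 to 0.185 CPM. Slc27a4, which activates and takes up long-chain fatty acids, overlapped between groups at 17.3 and 15.5 RPKM against 15.7 and 18.5 RPKM (edgeR adjusted p = 0.829). As a share of the RPKM of this step, Elovl4 went from 4.21% and 3.65% in WT KCs to 8.57% and 7.42% in KCs labelled Nfat5-/-, whereas Elovl1 held 55.1% to 59% in all 4.

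The epidermal lipoxygenases oxidise the linoleate of acylceramide. Alox12b, the first enzyme of this pair, was at 0.148 and 0.149 RPKM in WT KCs against 0.922 and 0.474 RPKM in KCs labelled Nfat5-/-, from 6, 8, 54 and 22 reads. Both libraries labelled Nfat5-/- were above WT, replicate 1 most of all. A log2 fold change of 2.25 (SE 0.49, 95% interval 1.11 to 3.39) did not pass the threshold (edgeR adjusted p = 0.0874). Aloxe3, whose enzyme isomerises the hydroperoxide that ALOX12B makes, was at 0.418 and 0.553 RPKM in WT KCs against 0.646 and 0.642 RPKM in KCs labelled Nfat5-/-. Its groups did not overlap, but the interval of the log2 fold change of 0.48 ran from -0.23 to 1.20 (edgeR adjusted p = 0.524). Of the summed lipoxygenase RPKM, Alox12b held 26.2% and 21.2% in WT KCs, against 58.8% and 42.5% in KCs labelled Nfat5-/-. Aloxe3 was thus the more abundant of the pair in 3 of the 4 libraries. Alox12e and Alox15, which lie on the same chromosome, had no read in any library.

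Glucosylation of ceramide by UGCG precedes its loading into lamellar bodies. Ugcg was at 3.73 and 4.15 RPKM in WT KCs against 6.44 and 6.54 RPKM in KCs labelled Nfat5-/-. The replicates were close and the groups separate, with 257 to 629 reads per library. Ugcg differed by 0.71 on the log2 scale (SE 0.13, 95% interval 0.41 to 1.02) and missed the edgeR threshold narrowly (adjusted p = 0.055). It passed by DESeq2 (adjusted p = 0.00898), with RLE factors (0.0491), with library totals (0.0487), with no filter (0.00026), with at least 10 reads in every library (0.0485), on exon reads (0.0451), on uniquely placed exon reads (0.0369) and without WT replicate 2 (0.0385). It did not pass by limma (0.0826 on log2(RPKM + 1) and 0.0733 on log2(RPKM + 0.1)) or with the replicate block (0.0831). Nor did it pass without WT replicate 1 (log2 fold change 0.66), or without replicate 1 (0.75) or replicate 2 (0.69) of the labelled Nfat5-/- group.

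Abca12, the transporter that fills lamellar bodies with glucosylceramide, was the sole member with an unadjusted p under 0.05 in the lower direction. It was at 15.9 and 8.64 RPKM in WT KCs against 7.27 and 8.14 RPKM in KCs labelled Nfat5-/-. WT replicate 1 stood alone, and WT replicate 2 lay close to the other genotype. Its log2 fold change was -0.66 (SE 0.26, 95% interval -1.26 to -0.06, edgeR adjusted p = 0.306). Without WT replicate 1 it was -0.15 (adjusted p = 0.837), and without WT replicate 2 it was -1.04 (adjusted p = 0.00398), so 1 library decided the value.

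Psap, the precursor of the saposins that help lysosomal and extracellular enzymes to split glucosylceramide, had the highest level of all members. It stood at 176 and 171 RPKM in WT KCs against 194 and 220 RPKM in KCs labelled Nfat5-/-. The groups were apart by a small step (log2 fold change 0.27, 95% interval 0.01 to 0.53, edgeR adjusted p = 0.325). Gba2, a non-lysosomal glucosylceramidase, was low at 0.933 and 1.31 RPKM in WT KCs against 1.32 and 1.51 RPKM in KCs labelled Nfat5-/- (edgeR adjusted p = 0.655). It overlaps Creb3 and Rgp1 in position, and its reads are uncertain for that reason.

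The genes of the first steps of ceramide synthesis were well expressed, and none passed the test. Serine palmitoyltransferase, which makes the long-chain base, is formed by the products of Sptlc1 and Sptlc2. Sptlc1 was at 27.4 and 29.9 RPKM in WT KCs against 32.2 and 34.8 RPKM in KCs labelled Nfat5-/-, and Sptlc2 at 18.7 and 18.5 RPKM against 21 and 21.6 RPKM. Kdsr, encoding the reductase of the next step, was at 4.68 and 4.12 RPKM against 5.12 and 5.6 RPKM. All 3 genes were higher in both libraries labelled Nfat5-/- than in both WT libraries, as were 23.3% of all genes tested. Their log2 fold changes were small, at 0.24, 0.19 and 0.29, and none passed the test (edgeR adjusted p = 0.373, 0.417 and 0.353), nor DESeq2 or an unadjusted p of 0.05.

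The ceramide synthases join the long-chain base to fatty acids of different length. Cers3, the form that takes ultra-long chains in the epidermis, was at 14.2 and 11.2 RPKM in WT KCs against 14 and 13 RPKM in KCs labelled Nfat5-/-. The groups overlapped, with a log2 fold change of 0.10 (95% interval -0.23 to 0.43, edgeR adjusted p = 0.806). This interval does not reach a 2-fold change. Cers2 was the most abundant synthase at 37.2 and 46.3 RPKM in WT KCs against 45.7 and 38.9 RPKM in KCs labelled Nfat5-/-, and held 52.1% to 58.9% of the synthase RPKM. Cers4, Cers5 and Cers6 had log2 fold changes of 0.16, 0.25 and -0.03, and none passed (edgeR adjusted p = 0.843, 0.405 and 0.921). Cers4 lay at 1.01 to 1.97 RPKM and Cers6 at 9.9 to 11.2 RPKM over the 4 libraries. Of these 3 only Cers5 had separate groups, at 7.78 and 9.2 RPKM against 10.2 and 10 RPKM.

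Dihydroceramide is then desaturated or hydroxylated. Degs1, the general desaturase, was at 71.9 and 68 RPKM in WT KCs against 73.8 and 82.9 RPKM in KCs labelled Nfat5-/- (log2 fold change 0.18, 95% interval -0.08 to 0.45, edgeR adjusted p = 0.508). Degs2, whose enzyme also makes the phytoceramides of the epidermis, was far lower at 0.303 and 0.315 RPKM in WT KCs against 0.691 and 0.771 RPKM in KCs labelled Nfat5-/-. Here the groups were clearly separate, from 13, 19, 43 and 44 reads. Its log2 fold change of 1.32 (SE 0.35, 95% interval 0.49 to 2.15) did not pass after adjustment (edgeR adjusted p = 0.148), and Degs2 overlaps Evl on the other strand, so the source of its reads is uncertain. Fa2h, the fatty acid 2-hydroxylase, had 1 and 3 reads in WT KCs against 1 and 1 in KCs labelled Nfat5-/-, at or under the floor, and was not tested.

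In the sphingomyelin branch 0 of 3 tested genes passed, by edgeR, by DESeq2 or at an unadjusted p under 0.05. Sgms1, the Golgi sphingomyelin synthase, was at 20.7 and 14.2 RPKM in WT KCs against 20.3 and 21.6 RPKM in KCs labelled Nfat5-/- (log2 fold change 0.27, 95% interval -0.14 to 0.69, edgeR adjusted p = 0.528). WT replicate 2 was the low library. Sgms2, the plasma membrane form, was low at 1.19 and 1.79 RPKM against 1.73 and 1.62 RPKM (edgeR adjusted p = 0.834). Smpd1, the acid sphingomyelinase that releases barrier ceramides from sphingomyelin, was at 13.6 and 11.6 RPKM against 10.8 and 11.4 RPKM (log2 fold change -0.15, edgeR adjusted p = 0.641). Smpd3, the neutral form, had 2 and 3 reads in WT KCs against 11 and 8 in KCs labelled Nfat5-/-, overlaps Prmt7, and was not tested.

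Ceramidases split ceramide into the base and the fatty acid. Asah1, the acid ceramidase, carried 96.8% to 98.9% of the ceramidase RPKM, at 33.1 and 31.4 RPKM in WT KCs against 29.7 and 32 RPKM in KCs labelled Nfat5-/-. Its groups overlapped (log2 fold change -0.05, 95% interval -0.29 to 0.20, edgeR adjusted p = 0.878). Acer1, the alkaline ceramidase of differentiating KCs, was at 0.124 and 0.0929 RPKM in WT KCs against 0.342 and 0.474 RPKM in KCs labelled Nfat5-/-. The groups were separate, with 5 and 5 reads against 22 and 22. With a log2 fold change of 1.98 (SE 0.48, 95% interval 0.86 to 3.10) it stayed short of the threshold (edgeR adjusted p = 0.112).

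Acer2, the Golgi alkaline ceramidase, was the sole tested member with most of its reads in introns. Introns took 111 of 133 and 187 of 210 gene reads in WT KCs, against 204 of 253 and 163 of 211 in KCs labelled Nfat5-/-. Exon reads numbered 22 and 23 against 49 and 48. In CPM the exon level was 1.93-fold higher and the intron level 1.12-fold higher in the libraries labelled Nfat5-/-. The gene as a whole gave a log2 fold change of 0.32 (edgeR adjusted p = 0.447) and the exon reads alone 0.96 (edgeR adjusted p = 0.246), so neither passed.

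**Figure D3:**
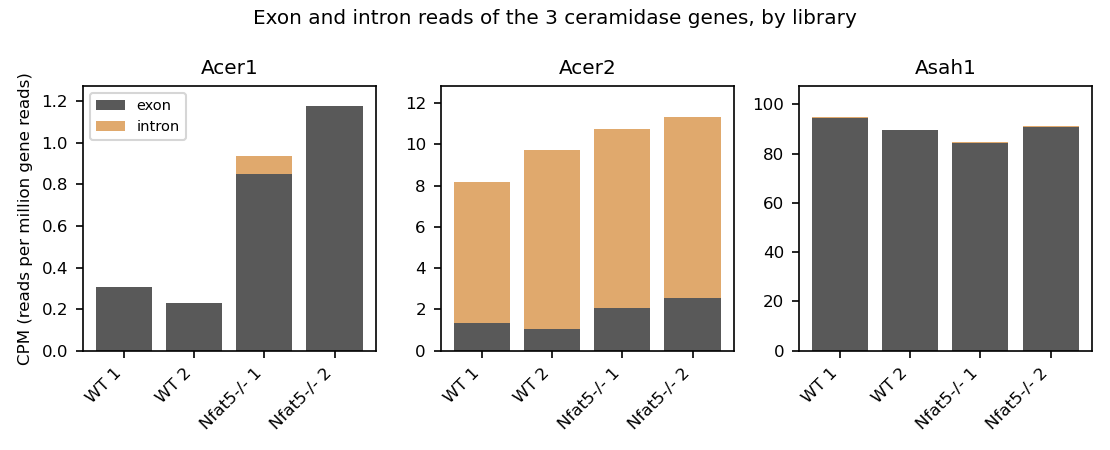
Exon reads (grey) and intron reads (tan) of the 3 ceramidase genes are drawn in CPM (y axis, own scale in each panel) for each library. Acer2 consists mostly of intron reads in all 4 libraries, Acer1 and Asah1 almost wholly of exon reads, and the exon part of Acer1 and Acer2 is taller in both libraries labelled Nfat5-/-.

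A second list held 71 other genes of barrier lipids, of which 58 were tested. By edgeR, 2 were called higher, Nipal4 and Ephx3 (3.45%, against 0.943% of all genes), and 0 lower. At an unadjusted p under 0.05 there were 14 higher (24.1%, against 8.17% of all genes) and 5 lower (8.62%, against 6.47%). DESeq2 called 4 higher (6.9%, against 2.31%), the same 2 with Sdr9c7 and Spns2, and 0 lower. The median log2 fold change of the list was 0.11. Ephx3, Sdr9c7, Lipk and Sptlc3 had under 10 reads in a WT library and entered the test only through the libraries labelled Nfat5-/-. With at least 10 reads required in every library these genes were not tested, and 1 of 54 genes was called higher. Neither the shares of this list nor its median therefore stand as support. No gene of the list was called when either library labelled Nfat5-/- was left out.

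Ephx3, an epoxide hydrolase that acts on the epoxides formed by ALOXE3, was at 0.144 and 0.162 RPKM in WT KCs against 1.11 and 1.03 RPKM in KCs labelled Nfat5-/-. The groups were far apart, from 6, 11, 69 and 49 reads (log2 fold change 2.65, SE 0.36, edgeR adjusted p = 0.0252). Ephx3 passed the filter on low counts only through the libraries where it was high, and was not tested with at least 10 reads in every library. Sdr9c7, the dehydrogenase that acts after the lipoxygenases, was at 0.294 and 0.0945 RPKM in WT KCs against 1.09 and 0.931 RPKM in KCs labelled Nfat5-/- (log2 fold change 2.48, SE 0.48, edgeR adjusted p = 0.0647). Nipal4, a membrane protein whose loss causes ichthyosis, was abundant at 16.8 and 16.1 RPKM in WT KCs against 25.7 and 27 RPKM in KCs labelled Nfat5-/- (log2 fold change 0.69, SE 0.10, edgeR adjusted p = 0.0318). Both libraries of each group agreed closely for Nipal4 and Ephx3.

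Among the genes of that list short of the threshold, the 8 smallest p-values fell on genes of several steps, Sdr9c7 among them. Spns2, an exporter of sphingosine-1-phosphate, was at 5.18 and 4.04 RPKM in WT KCs against 7.99 and 11 RPKM in KCs labelled Nfat5-/- (log2 fold change 1.05, edgeR adjusted p = 0.0629). B4galt5, which turns glucosylceramide into lactosylceramide, had a log2 fold change of 0.89 (edgeR adjusted p = 0.101), and Col4a3bp, the ceramide transfer protein, one of 0.48 (adjusted p = 0.132). The epidermal lipases Lipk and Lipm had log2 fold changes of 2.03 and 1.48 from at most 35 reads (edgeR adjusted p = 0.124 and 0.142). Sult2b1, the cholesterol sulfotransferase, had one of 0.34 (edgeR adjusted p = 0.24). Scd1, the stearoyl-CoA desaturase, was the one gene of the 8 with a lower level, at 88.7 and 92 RPKM in WT KCs against 74.3 and 70.1 RPKM in KCs labelled Nfat5-/- (log2 fold change -0.30, edgeR adjusted p = 0.215).

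**Figure D4:**
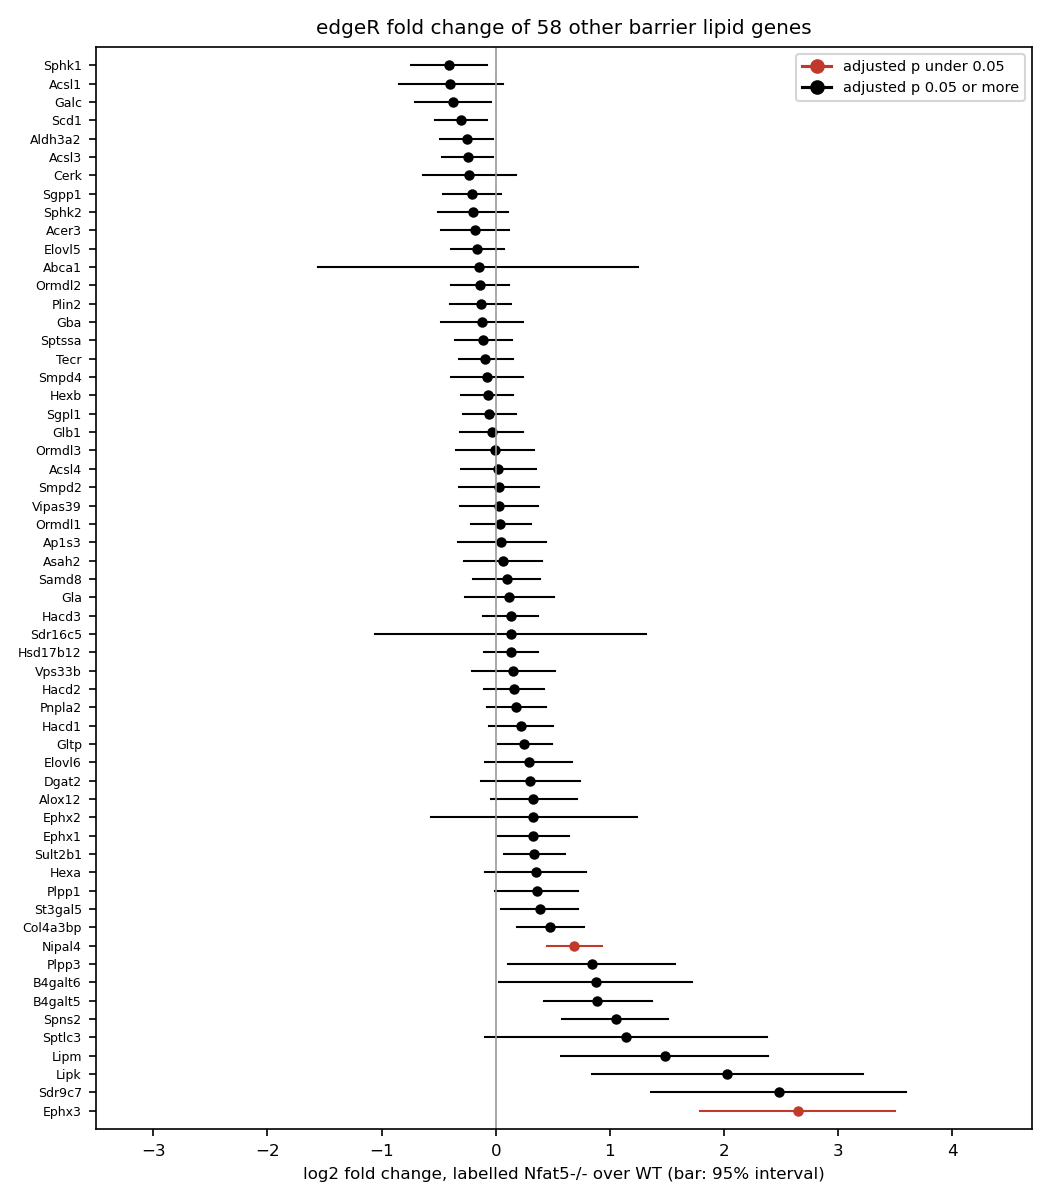
The log2 fold change of the labelled Nfat5-/- over the WT libraries (x axis) is plotted for the 58 tested genes of the second list in order of size, as the edgeR estimate with its 95% interval. Nipal4 and Ephx3, in red, passed the threshold, and the 5 largest estimates are Ephx3, Sdr9c7, Lipk, Lipm and Sptlc3.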

How the data were processed

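Poly(A) RNA libraries of 4 cultures were made with a kit for which no strand setting is stated. The authors trimmed the reads, aligned them to GRCm38 with the CLC Genomics Workbench at default settings and deposited read counts per gene (total, exon and intron) and RPKM, written with decimal commas; the deposited RPKM equal exon reads over exon length and 1 constant per library. Groups came from the sample titles.

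Differential expression was computed here with edgeR 4.0.16 (R 4.3.3) on total gene reads of all 4 libraries: filterByExpr, TMM factors, a quasi-likelihood fit with genotype as sole term, two-sided p-values, Benjamini-Hochberg adjustment over 12614 genes and a threshold of 0.05. On simulated counts with planted 2-fold changes edgeR recovered 161 of 196 changed genes among 12480, with 6 false calls. These counts followed the fitted trend of variance with level, without further scatter between genes. Recovery in the real data may therefore be lower. Every member is given. Of the second list, the text names genes past the threshold and the 8 next smallest p-values. Members and lists were chosen with earlier results of these data known. Alternatives were RLE factors, library totals, other filters, DESeq2 1.42.0, limma 3.58.1 on log2(RPKM + 1) and log2(RPKM + 0.1), exon and uniquely placed exon reads, a replicate block, an adjusted p under 0.1, and each library left out in turn. Promoter windows were taken from RefSeq (GRCm38.p6), and 27 tested members matched by symbol.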

Additional observations from a re-analysis of the deposited data

How the results depend on the processing

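The 3 members called higher became 7 with no filter on low counts (where 1 was also called lower), 5 at an adjusted p under 0.1, 1 with limma on log2(RPKM + 1) and 1 with the replicate block, and with 1 library left out 0 to 4 were called higher and 0 to 1 lower. Without a library of the labelled Nfat5-/- group, that group rests on 1 library, assumed to vary like the others. Of the second list, 2 called higher became 4 with library totals, 8 with no filter, 1 with at least 10 reads in every library, 4 with DESeq2, 4 with uniquely placed exon reads, 1 with the replicate block, 4 at an adjusted p under 0.1, and 0 to 4 with 1 library left out. Over the whole table, 119 higher and 41 lower became 723 and 414 with no filter, 298 and 118 with DESeq2, and 263 and 101 at an adjusted p under 0.1, lower ones became 26 with limma on log2(RPKM + 0.1), and leaving out 1 library gave 13 to 282 higher and 3 to 196 lower. The causes of these shifts were not tested. With 1 library left out the log2 fold change changed sign in 9 members: Cers2 (-0.11 to 0.19), Cers3 (-0.08 to 0.29), Cers4 (-0.22 to 0.72), Cers6 (-0.12 to 0.07), Elovl1 (-0.00 to 0.15), Slc27a4 (-0.06 to 0.21), Abhd5 (-0.06 to 0.00), Sgms2 (-0.11 to 0.45) and Asah1 (-0.12 to 0.02). The other 20 tested members kept their sign in every setting run. The replicate numbers showed no pairing (correlation of deviations -0.0652), and the block called 96 genes higher and 36 lower over the whole table, with edgeR adjusted p = 0.0297 for Elovl4, 0.0504 for Pnpla1, 0.0759 for Cyp4f39 and 0.0831 for Ugcg. Depth limits Cyp4f39, Pnpla1, Acer1 and Alox12b, which had 5 to 12 reads in each WT library, and left Fa2h and Smpd3 untested. RNA was measured, lipids and enzymes were not.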
